A study of Mus musculus with 2 samples.

Results

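The Hox cluster genes are the 39 protein-coding genes named Hoxa, Hoxb, Hoxc or Hoxd with a number, chosen by symbol alone from the 47643 gene IDs counted in each library (21620 of them protein-coding). They lie in 4 clusters, and 38 of them are described here, 10 in Hoxa, 10 in Hoxb, 9 in Hoxc and 9 in Hoxd. Every count, sum and median below is over these 38. The RNA was from E14 mouse embryonic stem cells (129/Ola background, tissue given as blastocyst) that carry, by their label, a knockout of both Ago1 and Ago2. Both encode Argonaute proteins, through which microRNAs repress their target transcripts. There were 2 polyA libraries of this 1 genotype, called replicate 1 and replicate 2 as the titles number them. The medium held 15% serum and LIF at 100 U/mL, which keeps these cells self-renewing, and the plates had a coat of 0.2% gelatine without a stated feeder layer. No value measures an effect of the knockout, since unmodified cells were not analysed here.

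Hox genes encode homeodomain transcription factors that give the segments of the embryo their identity along the head-to-tail axis. Genes at the same relative place in different clusters form a paralog group, numbered 1 to 13, and low-numbered groups are switched on earlier and nearer the head than high-numbered ones. In embryonic stem cells the clusters are a classic target of the Polycomb repressive complexes: PRC2 methylates histone H3 at lysine 27 and PRC1 ubiquitinates histone H2A. Retinoic acid activates the low-numbered end of the clusters, and microRNAs encoded inside the clusters (the miR-10 and miR-196 families) target Hox transcripts.

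Library totals were 34798975 counts in replicate 1 and 29789560 in replicate 2, so that 1 count equalled 0.0287 and 0.0336 CPM (counts scaled to a common library total). A gene was taken as above the floor when it had more than 3 counts in both libraries (3 counts are 0.0862 and 0.101 CPM). TPM also divides by exon length and is the scale on which the levels of single genes are compared. CPM is used for a gene between libraries and for sums over lists. Reads were assigned to both targeted genes in both libraries, with 2463 and 4205 counts for Ago1 and 4304 and 3839 for Ago2. Sums over all exons do not show an edited exon, and these counts check no label. The pluripotency genes that define embryonic stem cells were abundant in all 8 cases, led by Dppa5a at 12986 ± 1123 TPM and Pou5f1 at 1687 ± 85.6 TPM (mean ± SD, n = 2). Whether the libraries are separate cultures or clones is not in the labels, and the spread between them may be technical. Intervals and floors cover counting error only.

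Most of the described Hox genes were silent or nearly so, and a small set was detected at a low level. Of the 38 genes, 10 lay above the floor in both libraries, against 68.2% of all protein-coding genes. A further 19 had counts but stayed at or under the floor in at least 1 library, and 9 had no count in either library. The share with no count was close to the 20.3% found over all protein-coding genes. None of the 38 reached 1 CPM in both libraries, a level that 58% of protein-coding genes reached. Together they gave 233 counts in replicate 1 and 118 in replicate 2. That is 6.70 CPM (95% exact Poisson interval 5.86 to 7.61) and 3.96 CPM (3.28 to 4.74), or a mean share of 0.000533% of all counts. In TPM the median Hox gene stood at 0.0417 and 0.0262, beside medians of 3.20 and 2.94 over all protein-coding genes. In RNA from a whole culture, few cells with much Hox RNA and many cells with little cannot be told apart.

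**Figure D1:**
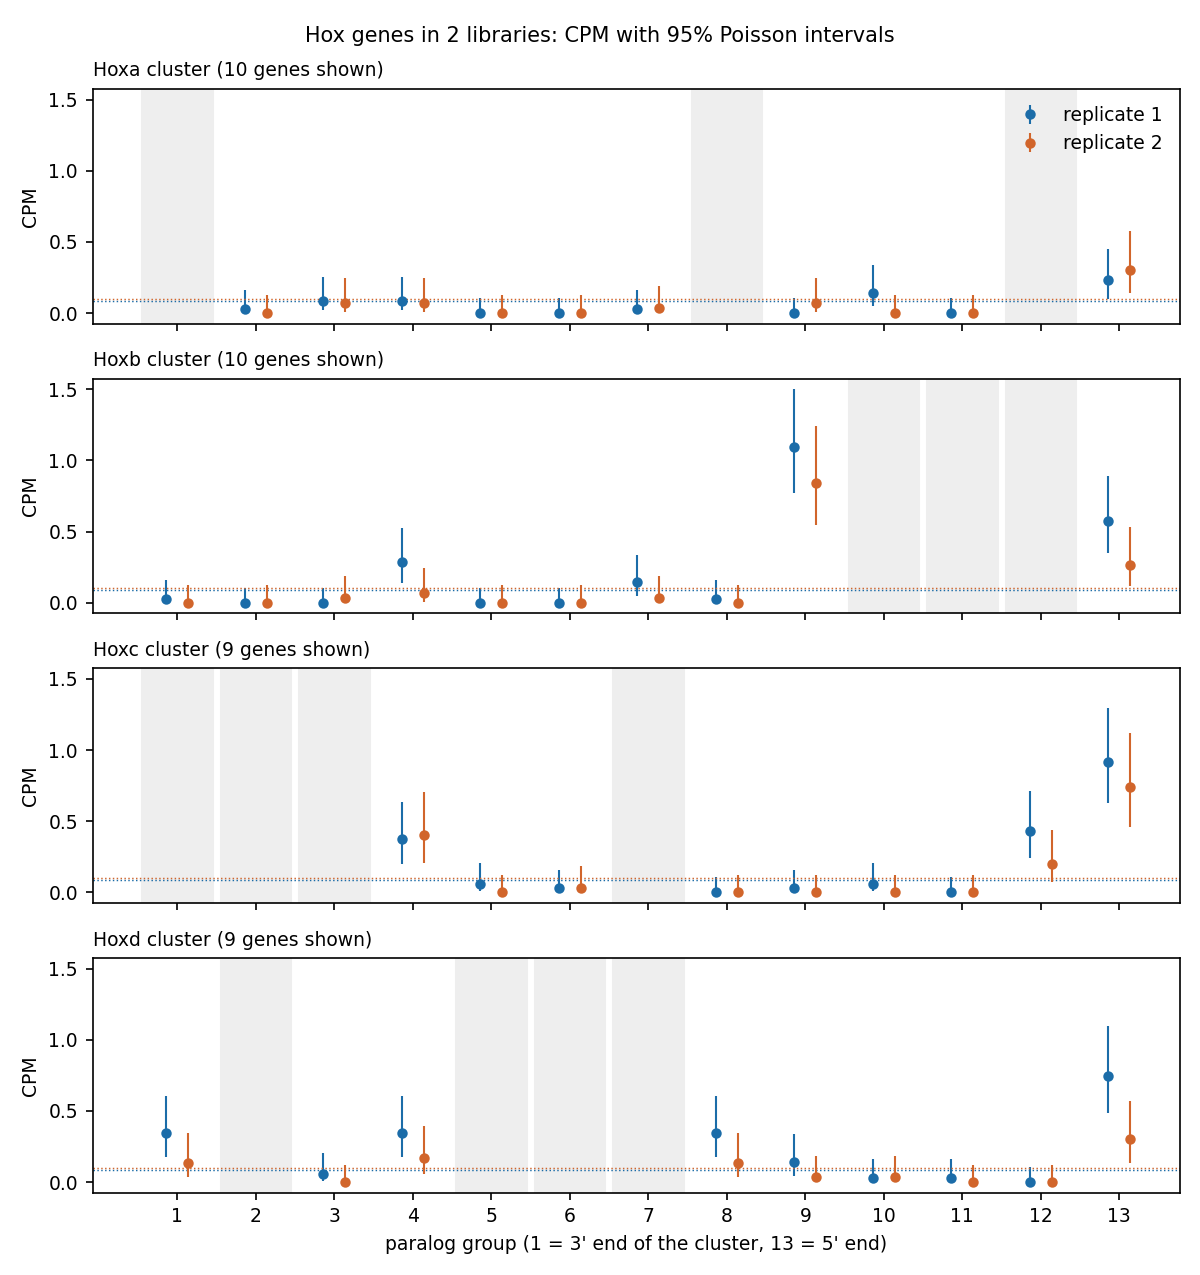
CPM of each of the 38 Hox genes in replicate 1 and replicate 2, by cluster and paralog group; points are the libraries and bars the 95% exact Poisson intervals, with the floor of 3 counts dotted and no gene plotted where shaded. Of the 38 genes, 10 lie above the floor in both libraries, and none reaches 1 CPM in both.

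The gene with the highest level of the 38 was Hoxb9, which takes part in the patterning of the thoracic skeleton and the mammary gland (ENSMUSG00000020875; chromosome 11, 96271457 to 96276595, plus strand; positions are on GRCm38). It had 38 and 25 counts, or 1.09 CPM (0.773 to 1.499) in replicate 1 and 0.839 CPM (0.543 to 1.24) in replicate 2. In TPM it stood at 1.17 and 0.897, with the higher value in replicate 1. The 10 genes above the floor form 9 adjacent pairs in order of TPM. In all 9 the values overlapped between the libraries, so the order of neighbours was not resolved beyond the spread.

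Next came Hoxc13, a regulator of hair and nail keratin genes (ENSMUSG00000001655; chromosome 15, 102921103 to 102928814), with 32 and 22 counts and 0.929 ± 0.147 TPM. Its neighbour Hoxc12 (ENSMUSG00000050328; chromosome 15, 102936757 to 102938609) had 15 and 6 counts. At only 1031 exon bases, Hoxc12 ranked 6 in CPM but 3 in TPM, with 0.846 ± 0.437. Hoxc4, at the other end of the same cluster (ENSMUSG00000075394; chromosome 15, 103018934 to 103036852), had 13 and 12 counts and 0.417 ± 0.0208 TPM, the smallest SD of the 10 genes. These were the only 3 genes of the Hoxc cluster above the floor.

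The other paralogs of group 13, the last genes of their clusters and the ones that pattern the digits, the external genitalia and the hindgut, were all above the floor as well. Hoxd13, the digit regulator mutated in synpolydactyly (ENSMUSG00000001819; chromosome 2, 74668310 to 74671599), had 26 and 9 counts, 0.583 ± 0.351 TPM. Hoxb13, which acts in the prostate and the tail bud (ENSMUSG00000049604; chromosome 11, 96194316 to 96197447), had 20 and 8 counts, 0.527 ± 0.272 TPM. Hoxa13, mutated in hand-foot-genital syndrome (ENSMUSG00000038203; chromosome 6, 52257694 to 52260880), had 8 and 9 counts, 0.297 ± 0.056 TPM. The counts of Hoxd13 and Hoxb13 were lower in replicate 2, and those of Hoxa13 were nearly equal.

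The remaining 3 genes above the floor belong to the Hoxd cluster. Hoxd1, a group 1 gene with a role in the wiring of pain-sensing neurons (ENSMUSG00000042448; chromosome 2, 74762980 to 74765142), had 12 and 4 counts, 0.355 ± 0.222 TPM. Hoxd8 (ENSMUSG00000027102; chromosome 2, 74704615 to 74707933) also had 12 and 4 counts, 0.241 ± 0.150 TPM. Hoxd4, a hindbrain and neck vertebra gene (ENSMUSG00000101174; chromosome 2, 74711929 to 74729160), had 12 and 5 counts, 0.240 ± 0.118 TPM. In replicate 2 these genes lay 1 or 2 counts above the floor. Of the genes not above it, Hoxb4 had the largest total, with 10 and 2 counts. Hoxd4 is the least certain of the 10, since 52.3% of its exon bases are shared on the same strand with Hoxd3 or the overlapping gene Gm28230 (7 and 5 counts). Hoxd3 shares 62.3% in the same way.

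The genes at or under the floor were Hoxa2, Hoxa3, Hoxa4, Hoxa7, Hoxa9 and Hoxa10 in the Hoxa cluster. In Hoxb they were Hoxb1, Hoxb3, Hoxb4, Hoxb7 and Hoxb8. In Hoxc they were Hoxc5, Hoxc6, Hoxc9 and Hoxc10, and in Hoxd they were Hoxd3, Hoxd9, Hoxd10 and Hoxd11. After Hoxb4 the largest totals were those of Hoxb7 and Hoxd9, with 5 and 1 counts each. No read was assigned to Hoxa5, Hoxa6, Hoxa11, Hoxb2, Hoxb5, Hoxb6, Hoxc8, Hoxc11 or Hoxd12. The 95% exact Poisson interval of a count of 0 reached up to 0.106 CPM in replicate 1 and 0.124 CPM in replicate 2.

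Summed by cluster, the described genes of all 4 clusters contributed in both libraries. Of the 10 described Hoxa genes on chromosome 6, only Hoxa13 was above the floor, and they had 21 and 16 counts in all. Hoxb, on chromosome 11 from 96194316 to 96368256, had 2 of 10 genes above the floor and 75 and 37 counts, or 2.16 CPM (1.70 to 2.70) and 1.24 CPM (0.875 to 1.71). Hoxb9 gave more of these counts than the other 9 genes together. Hoxc, on chromosome 15 from 102921103 to 103036852, had 3 of 9 genes and 66 and 41 counts, or 1.90 CPM (1.47 to 2.41) and 1.38 CPM (0.988 to 1.87). Hoxd, on chromosome 2 from 74668310 to 74765142, had 4 of 9 genes above the floor and 71 and 24 counts. Its sums of 2.04 CPM (1.59 to 2.57) and 0.806 CPM (0.516 to 1.20) had intervals that did not overlap between the libraries. The same held for the sum over all 38 genes. Those of Hoxb (only just) and Hoxc did overlap, which does not show equal levels, and the sums were not tested. Per length, the sums were 2.52 and 1.39 TPM for Hoxb, 2.79 and 1.83 TPM for Hoxc, and 2.30 and 0.918 TPM for Hoxd.

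By paralog group, group 13 stood out in number, with all 4 members above the floor and 86 and 48 counts, summing to 2.84 and 1.83 TPM. Group 9 summed to 1.39 and 0.973 TPM, mostly from Hoxb9, and group 4 to 1.18 and 0.776 TPM, with Hoxc4 and Hoxd4 above the floor. The middle of the clusters held little, and the 11 genes of groups 5 to 8 summed to 0.747 and 0.265 TPM (22 and 7 counts). The 11 genes of groups 1 to 4 summed to 1.85 and 1.03 TPM (57 and 28 counts). Low sums were not limited to the middle, since group 10 had 8 and 1 counts and group 11 had 1 and 0. The 16 genes of groups 9 to 13 summed to 5.66 and 3.39 TPM (154 and 83 counts). Groups 2, 3, 5, 6, 7, 10 and 11 had no member above the floor. Group 12 was represented by Hoxc12 alone, since Hoxd12 had no count.

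**Figure D2:**
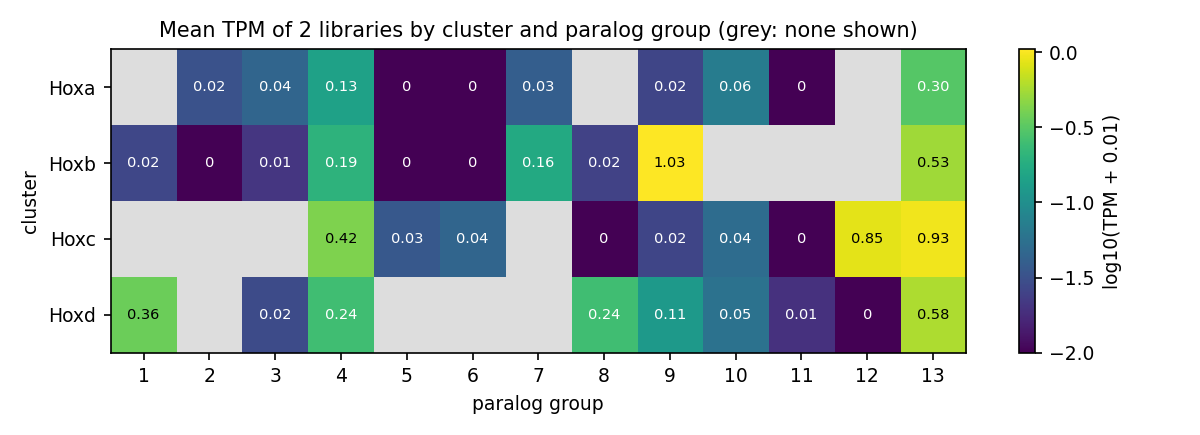
Mean TPM (numbers in the cells) over both libraries of each Hox gene, with clusters as rows and paralog groups 1 to 13 as columns; a grey cell holds no described gene, and color is on a log scale. Group 13 is filled in all 4 clusters, and the columns of groups 5 and 6 lie at 0 to 0.04 TPM.

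Of the 10 genes above the floor, 6 lay at an outer end of a cluster, a split that was described after the values were seen. The described genes at an end of a cluster are Hoxa13, Hoxb1, Hoxb13, Hoxc4, Hoxc13, Hoxd1 and Hoxd13. Of these 7, 6 were above the floor, and the exception was Hoxb1, with 1 and 0 counts. Of the 31 inner genes, 4 were above the floor (Hoxb9, Hoxc12, Hoxd4 and Hoxd8), 18 were at or under it and 9 had no count. The 7 end genes summed to 3.79 and 2.46 TPM (112 and 64 counts), and the 31 inner genes to 4.47 and 2.22 TPM (121 and 54 counts). The split depended on the libraries used and on the floor. Without replicate 2, at the same floor, 6 end and 8 inner genes were above it. With a floor of 0 counts 6 end and 12 inner genes passed, and with a floor of 10 counts 2 end and 1 inner. No test was applied to the split.

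Several RNAs within or beside the clusters had higher levels per length than any of the 38 Hox genes. Halr1, a long noncoding RNA beyond the low-numbered end of the Hoxa cluster (chromosome 6, 52102949 to 52113684, plus strand), had 730 and 625 counts, 59.1 and 58.8 TPM. The sum over the 38 Hox genes was 8.25 and 4.68 TPM. Gm53, a long noncoding RNA between Hoxb13 and Hoxb9 (chromosome 11, 96251105 to 96264868, plus strand), had 353 and 268 counts, 7.04 and 6.22 TPM. Both were chosen after their values were seen. Evx1, a homeobox gene that lies beyond Hoxa13, had 145 and 155 counts, 4.49 ± 0.69 TPM, and its counterpart Evx2 beyond Hoxd13 had none.

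The 102-base row of Mir196a-1, which lies between Gm53 and Hoxb9, held 37 and 35 counts. A polyA library does not measure mature microRNAs, and reads of a longer transcript can fall on such a row. Of the noncoding RNAs of the Hox clusters, 16 of the 19 listed were found. Only Mir196a-1 and Hotairm1 were above the floor in both libraries, and 11 had no count, among them Hotair, Hottip, Mir10a, Mir10b, Mir196a-2, Mir196b and Mir615. Between the outermost described genes of the clusters lie 38 noncoding genes, of which 4 were above the floor and 28 had no count. Outside these bounds but within 150 kb of them, 7 of 33 noncoding genes were above the floor and 16 had no count. In the same flanks 11 of 12 protein-coding genes were above the floor and 10 reached 1 CPM. The share over all noncoding genes was not computed. 

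**Figure D3:**
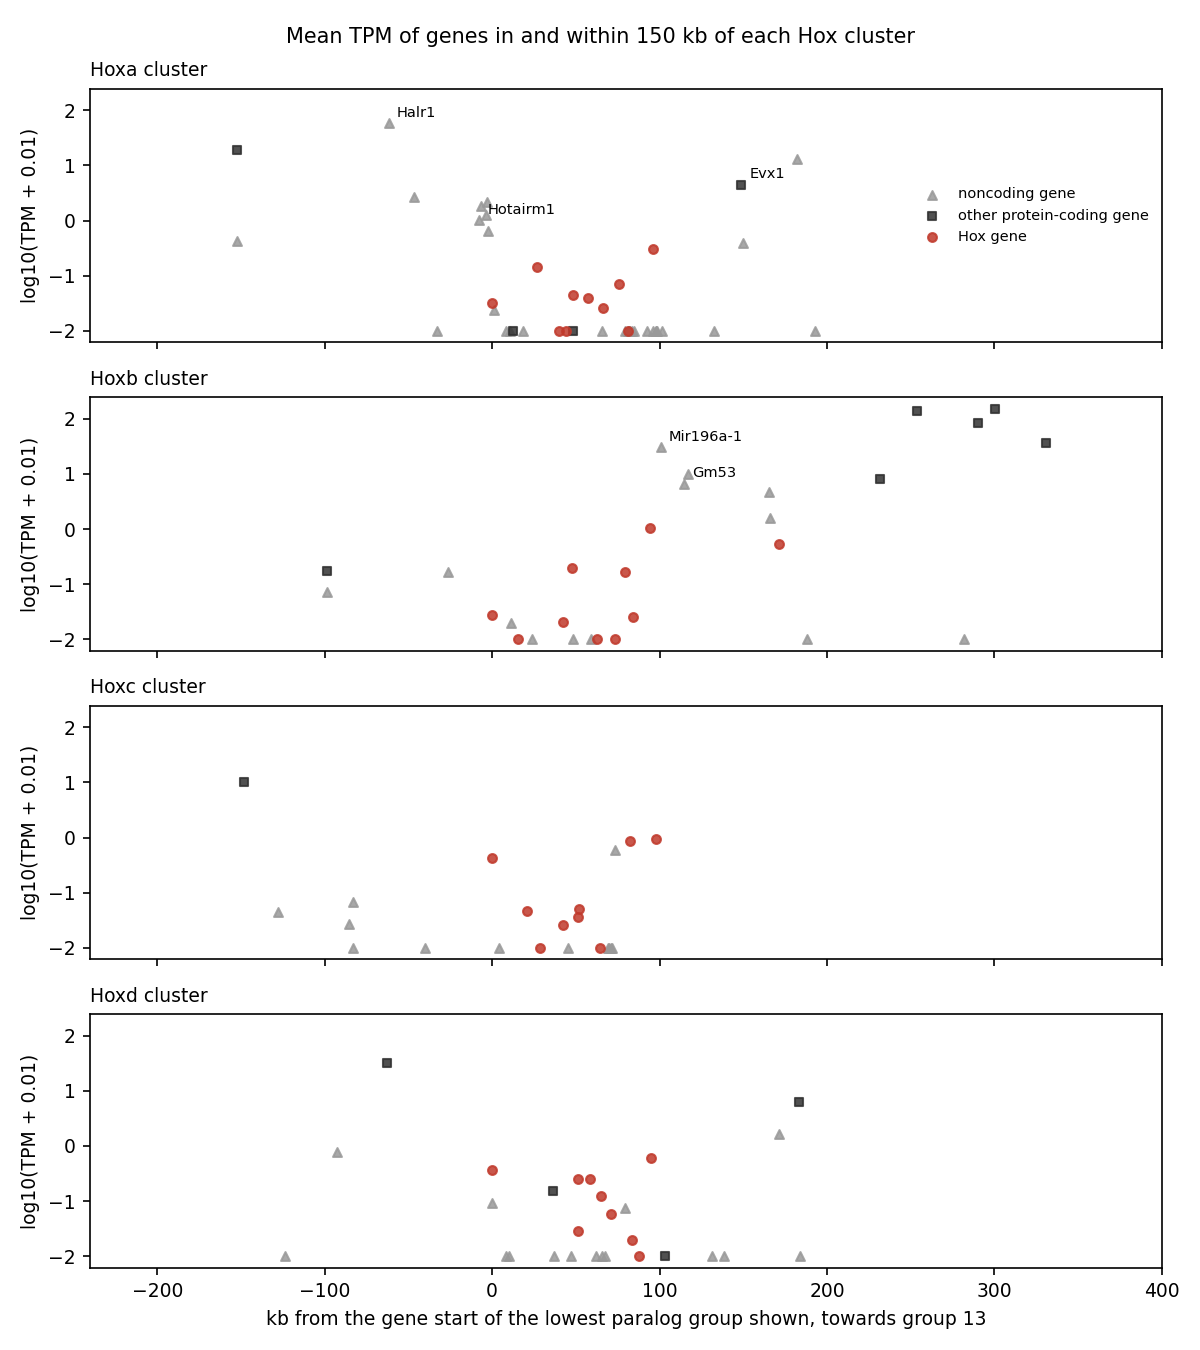
Log10 of mean TPM + 0.01 of genes in and within 150 kb of each Hox cluster, against the distance in kb from the start of its lowest-numbered gene plotted; circles are Hox genes, squares other protein-coding genes and triangles noncoding genes. Halr1 (59.1 and 58.8 TPM) and Gm53 (7.04 and 6.22 TPM) stand above every Hox gene plotted, and the high point of Mir196a-1 comes from a row of 102 bases.

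The promoters are shown because the clusters are rich in CpG islands, where Polycomb complexes bind. RefSeq promoter sequences of the GRCm38.p6 build were at hand for 22 of the 38 genes, among them 6 of the 10 above the floor. The 250 bases before the RefSeq start of 5 genes follow, from 5′ to 3′ on the strand of the gene, with each CG dinucleotide in capitals. They are the group 13 genes Hoxa13 (chr6:52260881-52261130, minus strand) and Hoxd13 (chr2:74667975-74668224, plus strand), both detected. Hoxa11 (chr6:52245811-52246060, minus strand) and Hoxd12 (chr2:74674763-74675012, plus strand) had no count, and Hoxd4 (chr2:74721728-74721977, plus strand) was detected.
Hoxa13: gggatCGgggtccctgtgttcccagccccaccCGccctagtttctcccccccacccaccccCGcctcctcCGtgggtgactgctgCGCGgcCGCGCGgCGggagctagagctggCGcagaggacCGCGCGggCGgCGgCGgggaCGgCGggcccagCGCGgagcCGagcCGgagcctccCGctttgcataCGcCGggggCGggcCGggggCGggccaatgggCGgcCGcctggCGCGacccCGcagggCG
Hoxd13: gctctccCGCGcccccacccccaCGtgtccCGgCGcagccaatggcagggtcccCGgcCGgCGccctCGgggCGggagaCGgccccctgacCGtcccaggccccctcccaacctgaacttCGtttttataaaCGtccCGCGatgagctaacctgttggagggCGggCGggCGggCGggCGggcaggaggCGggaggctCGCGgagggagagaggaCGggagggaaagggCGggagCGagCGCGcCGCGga
Hoxa11: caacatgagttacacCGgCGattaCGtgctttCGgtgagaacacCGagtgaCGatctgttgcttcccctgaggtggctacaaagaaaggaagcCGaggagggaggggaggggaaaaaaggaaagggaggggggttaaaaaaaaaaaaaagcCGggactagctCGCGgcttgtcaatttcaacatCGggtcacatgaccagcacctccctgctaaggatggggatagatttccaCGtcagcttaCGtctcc
Hoxd12: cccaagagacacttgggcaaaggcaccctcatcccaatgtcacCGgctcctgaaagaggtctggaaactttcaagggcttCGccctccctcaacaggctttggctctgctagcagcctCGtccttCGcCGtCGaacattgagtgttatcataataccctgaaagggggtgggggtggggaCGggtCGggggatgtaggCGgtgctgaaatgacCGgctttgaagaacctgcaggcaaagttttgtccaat
Hoxd4: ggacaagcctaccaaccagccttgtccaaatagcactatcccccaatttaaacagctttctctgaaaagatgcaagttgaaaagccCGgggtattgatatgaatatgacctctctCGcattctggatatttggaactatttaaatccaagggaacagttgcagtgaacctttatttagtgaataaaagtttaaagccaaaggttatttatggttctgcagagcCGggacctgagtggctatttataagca

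The Hoxa13 window held 35 CG dinucleotides, and 2.97% of the 32851 windows of that length held at least as many. The Hoxd13 window held 31 (5.19% had at least as many). The windows of the undetected genes Hoxa11 and Hoxd12 held 13 (31.5%) and 10 (37.8%). Hoxd4 held 3, a number that 71.0% of windows reached, although the gene was above the floor. Its RefSeq start lies inside the gene's span (74711929 to 74729160), so this window is not upstream of the whole gene counted here. The same holds for the window of Hoxc4 and for those of some genes not above the floor. Among undetected genes Hoxa5 had 28 and Hoxa6 had 24, the number also found for Hoxd1. The median was 16 (range 3 to 35) over the 6 genes above the floor, 12.5 (range 2 to 28) over the other 16 and 6 over all windows. Hoxa10 and Hoxd11 had 2 windows each, and the one at the lower position entered (20 and 2 CG). Their other windows held 7 and 20. CG reads the same on both strands. These counts describe the letters only, and 16 genes were not searched.

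The cluster-encoded microRNAs are shown because Argonaute proteins carry them and because Hox transcripts are among their known targets. RefSeq mature sequences of the 4 guide strands follow, 5′ to 3′, with the seed (bases 2 to 8) in capitals. They form 2 seed families.
miR-196a-5p: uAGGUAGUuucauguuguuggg
miR-196b-5p: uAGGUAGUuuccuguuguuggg
miR-10a-5p: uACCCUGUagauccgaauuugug
miR-10b-5p: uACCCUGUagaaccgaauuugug

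The match to the miR-196 seed, ACTACCT on the transcript strand, occurred in the 3′ untranslated regions of 8 of the 38 Hox genes (21.1%), against 6.10% of 20781 genes. In windows of equal length (1000 bases), it occurred in 2 of 17 Hox genes (11.8%) and 3.95% of all genes. The 8 were Hoxa4, Hoxa5, Hoxa7, Hoxa9, Hoxb1, Hoxb6, Hoxb7 and Hoxc8, with 4 matches in Hoxa7. None of these 8 was above the floor, against 10 of the 30 genes with no match. Most of the 8 belong to groups 5 to 8, where 1 of 11 genes was above the floor. The 30 include Hoxb8, whose site described below has no exact seed match. The share above the floor over all genes with a match was not computed, and the split was not tested. The match to the miR-10 seed, ACAGGGT, occurred in 3 genes (7.89%: Hoxa3, Hoxb3 and Hoxd1), against 12.5% of all genes. A match is a description of letters, not a site of action.

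Hoxb8 holds the known near-complete pairing site for miR-196, at bases 418 to 439 of its 845-base 3′ untranslated region, printed with the bases that form Watson-Crick pairs with miR-196a in capitals.
Hoxb8: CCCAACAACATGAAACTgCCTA
Of the 22 positions, 21 form Watson-Crick pairs and 1 a G:U pair. The next best Hox transcript, Hoxd8, reached 15 Watson-Crick pairs. Such pairing lets the slicer Ago2 cut the transcript. Hoxb8 had 1 count in replicate 1 and 0 in replicate 2, so its RNA was not detectable above the floor in these cells.

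The reads of the libraries were then compared gene by gene, which compares these libraries and not conditions. With at least 10 counts in total, 11 Hox genes could be tested, the 10 above the floor and Hoxb4. A two-sided exact binomial test, adjusted over 19078 genes, called none of them, while 24.2% of all tested genes were called (13.1% lower in replicate 2). Of the 4079 genes with totals in the range of the tested Hox genes, 4.27% were called. At an unadjusted p under 0.05 there were 2, both with fewer reads in replicate 2. Hoxd13 (26 and 9 counts) had a log2 ratio of -1.27 ± 0.55 (counting SE), with a p of 0.0170 and an adjusted p of 0.0652. Hoxb4 (10 and 2 counts) had -1.88 ± 1.02, with a p of 0.0453 and an adjusted p of 0.139. EdgeR's exact test called 0 Hox genes, with 0 also at an unadjusted p under 0.05, and 0.456% of all genes. Its dispersion came from the same libraries that it compared, which by construction leaves few calls, so its count of 0 says little.

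Although no single gene was called, 9 of the 11 ratios were negative (52.3% over all genes). The median log2 ratio of the 11 was -1.04, beside -0.01 over all tested genes and -0.08 over the 4079 genes with totals in the same range. The genes with the most counts had ratios nearer to 0, namely Hoxb9 with -0.38 ± 0.37 and Hoxc13 with -0.31 ± 0.40. The positive ratios were those of Hoxa13 (0.37 ± 0.68) and Hoxc4 (0.10 ± 0.57). Over the 6 Hox genes with 20 counts or more, the median was -0.71, and over the 2 with 50 or more it was -0.34. Across the tested genes the log2 ratio had a Spearman rho of -0.20 with GC content, and the tested Hox genes had a median GC content of 54.7% against 50.1% over all tested genes. After removal of the trend on GC content and length the median was -0.99.

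**Figure D4:**
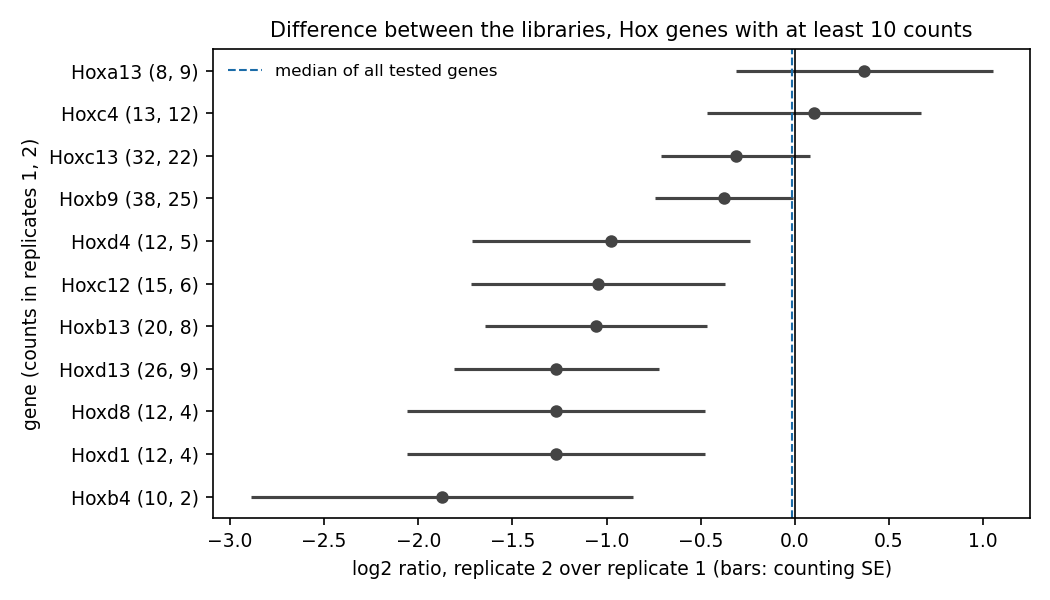
Log2 ratio of replicate 2 over replicate 1 for the 11 tested Hox genes, with bars of 1 counting SE and dashed for the median of all 19078 tested genes. Of the 11 points, 9 lie below 0, and none was called after adjustment.

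The machinery of Polycomb repression was expressed throughout. All 12 genes of PRC2 and its partners reached 1 CPM in both libraries, with a median of 120.1 and 129 TPM. The histone-binding subunit Rbbp7 (324 ± 20.2 TPM) and the accessory factor Mtf2 (188 ± 2.20 TPM) were the highest. The core subunits Eed (163 TPM), Suz12 (164 ± 32.3 TPM) and the methyltransferase Ezh2 (74.9 TPM) were all present. Of the 22 PRC1 genes, all were above the floor and all but Cbx8 (51 and 20 counts) reached 1 CPM, led by Phc1 (191 ± 8.19 TPM) and Rybp (115 ± 9.01 TPM). The opposing Trithorax group, with the H3K27 demethylases and the boundary factors, had all 11 genes at 1 CPM or more, led by Rad21 (412 TPM) and Dpy30 (367 TPM).

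The lists of partners and inducers of Hox proteins had lower medians than the Polycomb and Trithorax lists, although single genes were high. These medians were 4.47 and 5.77 TPM for the TALE cofactors and 3.40 and 2.57 TPM for the retinoic acid pathway. Of the 9 TALE homeodomain cofactors, which bind DNA together with Hox proteins, 7 reached 1 CPM (all but Meis1 and Meis3), led by Pbx2 (41.8 ± 2.83 TPM) and Pknox1 (15.1 TPM). In the retinoic acid pathway 16 of 19 genes were above the floor and 13 reached 1 CPM, led by the receptors Rarg (160.04 ± 1.03 TPM) and Rxrb (33.0 TPM). Cyp26a1, the retinoic acid hydroxylase that retinoic acid itself induces, had 7 counts in each library. Stra8, another gene induced by retinoic acid, had 736 and 199 counts, a log2 ratio of -1.66 ± 0.12 (edgeR's exact test, adjusted p = 2.10e-07). It was the only gene of the list called by that test, which called 0.456% of all tested genes. The exact binomial test called 3 of the 17 tested genes of the list, namely Stra8, Crabp1 and Rxra, all lower in replicate 2. Over all tested genes it called 24.2%, and 13.1% as lower in replicate 2. Cyp26a1, Stra8 and these others were chosen after their values were seen, and any part of Stra8 in the ratios of the Hox genes was not tested.

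A chosen list of 63 homeobox genes outside the clusters, all developmental regulators, was also mostly low. It is not the whole family, and leaves out higher homeobox genes such as Pou5f1 (1687 TPM) and Pbx2 (41.8 TPM). Of the 63, 26 were above the floor (41.3%) and 10 reached 1 CPM (15.9%), beside 26.3% and 0% of the Hox genes. Their median was 0.1004 TPM in replicate 1 and 0.0875 TPM in replicate 2, beside 0.0417 and 0.0262 TPM for the Hox genes. The highest of the list were Otx2 (26.4 ± 4.26 TPM) and Vax2 (23.3 ± 3.46 TPM). The list of ParaHox and Evx genes also holds the homeobox genes Gbx1, Gbx2 and Mnx1, which belong to neither group. It had 7 of 11 genes above the floor (63.6%, near the 68.2% of all protein-coding genes). The highest were Gbx2 (13.03 ± 5.94 TPM) and Evx1, and Evx2 was at 0. The difference between these lists and the Hox genes was not tested.

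**Figure D5:**
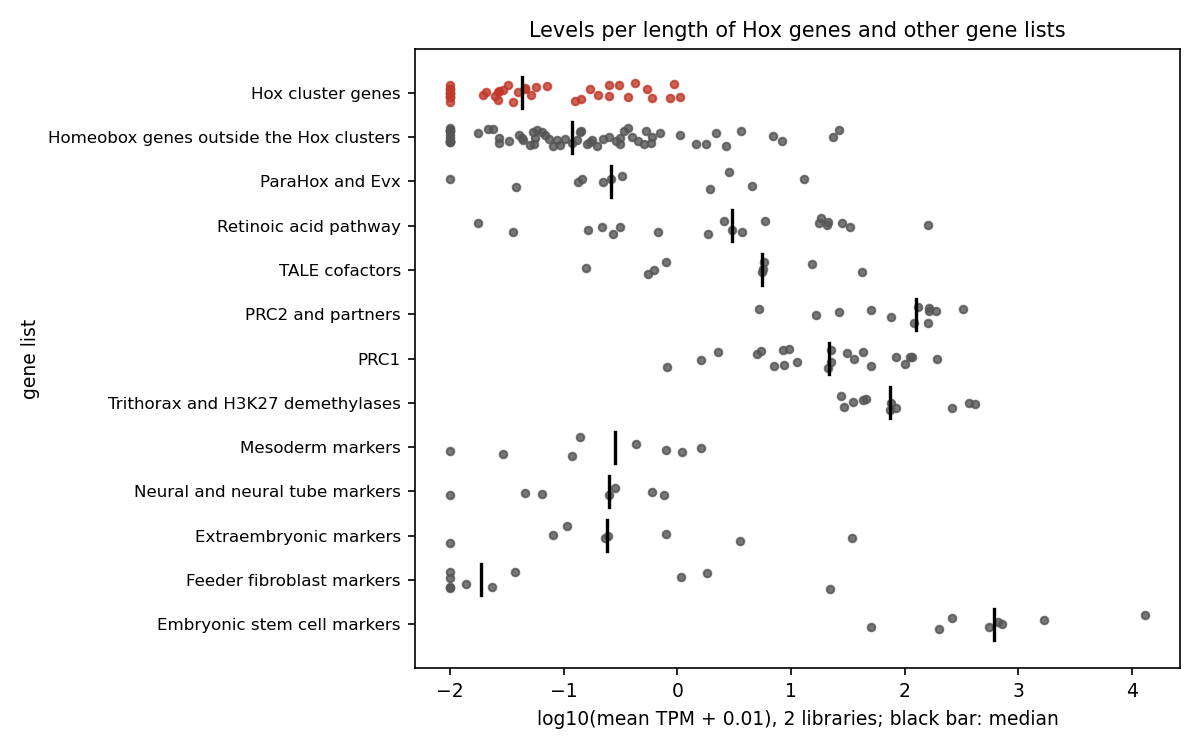
Log10 of mean TPM + 0.01 of each gene in the Hox set and in the other gene lists; points are genes and black bars the medians. The medians of the Polycomb and Trithorax lists lie far above that of the Hox genes. The listed homeobox genes outside the clusters overlap with the Hox genes.

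Markers of other cell types were checked because a minority of differentiated cells could carry Hox RNA. The feeder fibroblast list had 3 of 10 markers above the floor and summed to 30.8 and 29.4 CPM. Thy1, a surface protein also found outside fibroblasts, gave 24.7 and 23.1 CPM of this. Also above the floor were Pdgfrb (3.97 and 3.19 CPM) and Col1a1 (2.04 and 3.05 CPM), while Col3a1, Lum, Prrx1 and Postn had no count. Mesoderm markers had 3 of 8 above the floor, with sums of 5.66 and 8.29 CPM, and T, the defining gene, had 4 and 2 counts. Those above the floor were Kdr, Tbx6 (21 and 24 counts) and Hand1 (22 and 15 counts). Neural markers had 4 of 7 above the floor, with 4.43 and 4.60 CPM, and Olig2 had no count. The highest of them in CPM were Pax6 (2.33 and 2.65 CPM) and Sox1 (1.24 and 1.38 CPM). Extraembryonic markers had 6 of 8, with 47.9 and 57.7 CPM, and Afp had no count. The feeder, mesoderm, neural and extraembryonic shares above the floor were 30, 37.5, 57.1 and 75%, against 68.2% of all protein-coding genes. Most of the mesoderm sum came from Kdr (4.11 and 6.48 CPM) and most of the extraembryonic sum from Tfap2c (40.2 and 52.0 CPM), while the endoderm factor Gata4 had 5.78 and 4.33 CPM. The Hox sum was 6.70 and 3.96 CPM. The part of other cells in the Hox counts was not tested.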

How the data were processed

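Counts were deposited as whole-number reads per Ensembl gene, with no normalization. STAR 2.4.2a and the build mm10 (GRCm38) are named, per the submitters' processing notes. Per the labels' protocols, libraries came from 1 ug of Trizol-extracted RNA by a reverse-stranded TruSeq protocol. Not given in the sources used here are the counting tool, its strand setting, how shared reads were treated and the annotation release, so overlapping, antisense and readthrough genes can share or lose reads.

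GENCODE M21 named 47224 of the 47643 IDs. The unnamed IDs took 0.116 and 0.124% of counts. CPM used the total of gene counts and TPM the union exon length. Intervals are 95% exact Poisson. Replicates were compared by a two-sided exact binomial test at edgeR TMM sizes (factors 0.999 and 1.00) with Benjamini-Hochberg adjustment (threshold 0.05) over genes with at least 10 counts. Log2 ratios had a pseudocount of 0.5 counts. EdgeR's exact test, with a trended dispersion from both libraries as 1 group, was an alternative. The binomial test was first checked on simulated counts. A lowess trend (fraction 0.3) removed GC and length effects. Alternatives also covered DESeq2 size factors, floors and count filters.

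Members and lists were chosen with earlier results of these data known. Of the 39 Hox genes, 1 is not reported here and entered no Hox count, sum or median, and 1 gene of another list is likewise not reported. Every other Hox gene above the floor was named with its counts, and the others once by class. Of other lists the rule took the 2 highest in TPM and those with no count, of which the text names only a part. Other genes were chosen after their values were seen. Versions were Python 3.11.15, scipy 1.17.1, pandas 2.3.3, numpy 2.4.6, statsmodels 0.14.6, matplotlib 3.10.9, R 4.3.3, edgeR 4.0.16 and DESeq2 1.42.0.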

Additional observations from a re-analysis of the deposited data

How the results depend on the processing

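The number of described Hox genes above the floor was 10 with a floor of 3 counts, 18 with a floor of 0 and 3 with a floor of 10, and 10 to 14 with 1 library left out. Without replicate 2, the inner genes above the floor rose from 4 to 8 (range 4 to 8), while the end genes stayed at 6 (range 6 to 6). With a floor of 0, 6 end and 12 inner genes passed, and with a floor of 10, 2 end and 1 inner. These end and inner counts were chosen after seeing the data. At least 1 CPM was reached by 0 genes, 0.1 CPM by 10, 0.5 CPM by 2 and 2 CPM by 0, and with 1 library left out 0 to 1 reached 1 CPM (Hoxb9 without replicate 2). The Hox share of counts ranged from 0.000396 to 0.000670% with 1 library left out. The median log2 ratio moved from -1.04 to -0.71 (at least 20 counts, 6 genes) and -0.34 (at least 50 counts, 2 genes), since genes with few counts left the set. It was -0.99 and -0.91 with pseudocounts of 1 and 2. No described Hox gene was called with totals without TMM, DESeq2 size factors or the other count filters. Hoxb9 and Hoxc13 ranked 1 and 2 in mean CPM, in mean TPM and in CPM with either library left out, but in TPM of replicate 1 alone Hoxc12 (1.16) lay above Hoxc13 (1.03). No paired analysis was possible because the series has 1 group. Depth limits the order of genes under about 10 counts.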
